A study of Mus musculus with 6 samples.

Results

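The genes described here encode non-keratin intermediate filament proteins: nestin (Nes), vimentin (Vim), alpha-internexin (Ina), the light and medium neurofilament chains (Nefl and Nefm), glial fibrillary acidic protein (Gfap), synemin (Synm) and the nuclear lamins (Lmna, Lmnb1 and Lmnb2). They are 10 of the 52636 Ensembl genes in the count tables, and the rule that lists them is membership of this family. All 10 symbols matched 1 identifier each, and all 10 passed the filter on low counts. The study sequenced RNA from 3 libraries of enhancer cluster-KO cells, here called KO, and 3 libraries of WT cells, all of the mouse embryonic stem cell line E14. Both kinds of cells had been differentiated for 4 days with retinoic acid (given as 5 µm in the labels) after withdrawal of LIF and of the MEK and GSK inhibitors in which they were grown. The series title links the enhancer cluster to HoxB activation and to the formation of neural progenitor cells (NPCs) from stem cells. Where the deletion lies and how many clones carry it is not given in the sources used here, so no gene count checks the deletion itself.

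Intermediate filaments are rope-like polymers of coiled-coil proteins that give cells and nuclei mechanical strength. Vimentin forms filaments on its own in mesenchymal, migrating and early neural cells. Nestin and synemin need a partner such as vimentin to form filaments, and nestin is widely used to mark neural progenitors. Neurofilament chains and alpha-internexin fill the axons of neurons, GFAP marks astrocytes, and lamins line the inside of the nuclear envelope, where B-type lamins are made by nearly all cells and A-type lamins rise as cells differentiate.

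Gene counts were 7780368, 7965682 and 8521902 in enhancer cluster-KO replicates 1 to 3, and 8523464, 9472916 and 8208615 in WT replicates 1 to 3. Enhancer cluster-KO replicate 1 stood apart from the rest in reads over ribosomal RNA repeats, at 1.04% of its counts, while the remaining 5 libraries had 0.0726 to 0.118%. Transcripts of the mitochondrial genome took 2.58 to 2.89% of counts in the KO libraries and 1.67 to 1.73% in the WT libraries. The series' design text calls the cells NPCs, and the 8 defining neural progenitor markers ranged widely in level. Cdh2 had 376 to 1245 counts per library, Sox2 199 to 688, Msi1 213 to 322, Prom1 119 to 280 and Sox3 28 to 73. Pax6, a neural transcription factor, had 36, 34 and 46 counts in KO and 18, 18 and 19 in WT. Sox1, an early neural marker, had 14, 10 and 21 counts in KO and 12, 23 and 17 in WT, and Fabp7, a radial glia marker, had 0 counts in all 6 libraries. Among 5 pluripotency markers, Nanog was at 32.8 ± 1.51 CPM (counts of a gene scaled to its library's TMM-adjusted total) in KO and 163.8 ± 3.89 CPM in WT, and Zfp42 and Esrrb were lower in KO as well (log2 fold changes -1.55 and -1.18). Pou5f1 was at 200.6 ± 14.9 CPM in KO and 184.0 ± 5.36 CPM in WT, and Klf4 at 64.2 ± 0.977 CPM in KO and 52.7 ± 2.07 CPM in WT (SD, n = 3 each). Both were higher in KO (log2 fold changes 0.12 and 0.28).

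Of the 10 genes, 9 fell in the knockout, 0 rose and Gfap did not pass the test, and DESeq2 and limma-voom gave these same counts. All 10 fold changes were negative, so none was higher at an unadjusted p either. Across all 15816 tested genes, 34.0% fell, 34.5% rose and 68.6% changed in either direction (edgeR's quasi-likelihood test, Benjamini-Hochberg adjusted p under 0.05). The median log2 fold change (KO over WT) of the 10 genes was -0.80, beside 0.0091 over all tested genes. The 9 that fell were of unlike size. Nes, Vim and Ina dropped to 14.5%, 17.4% and 13.1% of their WT level, whereas the other 6 kept 52.8% to 85.4% of it. A fall of log2 2 or more was seen for these 3 of the 10 genes and for 2.05% of all tested genes. Ina, 1 of these 3, passed the filter on low counts through its WT libraries, with only 2 KO libraries over the limit. Gfap also passed through its WT libraries, with only 1 KO library over the limit. Genes kept this way lean towards negative fold changes, so the signs of Ina and Gfap were not independent of the filter. Ranked by log2 fold change from the lowest among all tested genes, Ina was at place 114, Nes at 134 and Vim at 173. The remaining 7 lay between place 1751 (Nefm) and place 5811 (Lmna). Without KO replicate 1 the same 9 genes fell, with log2 fold changes of -2.87 for Nes, -2.51 for Vim and -2.82 for Ina. These are bulk samples, in which fewer cells of a type and less RNA per cell cannot be told apart.

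**Figure D1:**
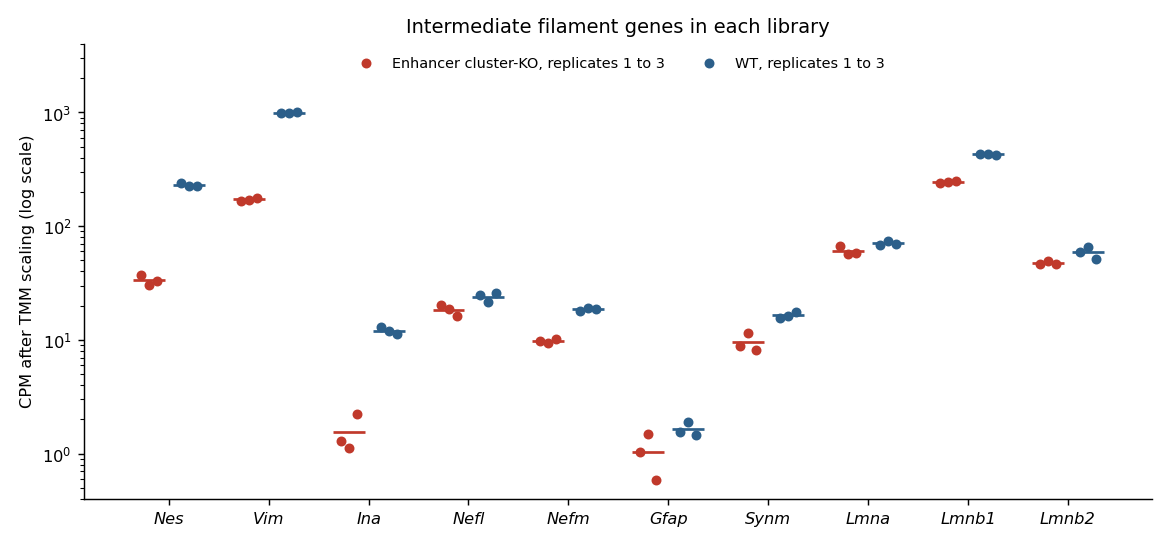
Normalised level of each gene in every library, as TMM-scaled CPM on a log axis; red points are the 3 enhancer cluster-KO libraries, blue points the 3 WT libraries and short lines the group means. Red and blue points are apart for 9 genes and overlap for Gfap, and the gap is widest for Nes, Vim and Ina.

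Vim, the most abundant of the 7 cytoplasmic genes described here, had 167.9, 171.6 and 178.0 CPM in KO libraries, against 996.0, 981.5 and 1005.0 CPM in WT libraries. The 3 KO values lay together far below all WT values, and no library of either group stood apart. The log2 fold change was -2.53 (SE 0.036, adjusted p = 4.19e-27 by edgeR). Vim (ENSMUSG00000026728) lies on chromosome 2 from 13573927 to 13582826 (GRCm38, plus strand), and none of its exon length is overlapped by a gene on the other strand.

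Nes, whose protein co-assembles with vimentin in neural progenitors, had 37.5, 30.7 and 32.7 CPM in KO, against 239.4, 227.5 and 227.5 CPM in WT. The groups were well apart, with KO replicate 1 the highest of the KO libraries. The log2 fold change was -2.78 (SE 0.059, adjusted p = 2.04e-23 by edgeR). Nes (ENSMUSG00000004891) lies on chromosome 3 from 87971078 to 87980451, plus strand. Lmna is on the same chromosome 499695 bases further on, and the fold changes of these neighbours differed, at -2.78 for Nes and -0.23 for Lmna.

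Synm, which encodes a large filament protein that like nestin assembles only with partners, had 8.89, 11.6 and 8.08 CPM in KO, against 15.7, 16.2 and 17.7 CPM in WT. KO replicate 2 was the highest KO library and still lay below every WT library. Its log2 fold change was -0.79 (SE 0.15, adjusted p = 4.97e-05 by edgeR). Exons of Gm45102 and Ttc23 on the other strand cover 6.43% of the Synm exon length.

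Among the neuronal chains, Ina fell most. It encodes alpha-internexin, a filament protein of young neurons. It had 10, 9 and 19 counts in KO and 109, 112 and 92 counts in WT, or 1.29, 1.12 and 2.23 CPM in KO and 12.9, 11.9 and 11.3 CPM in WT. KO replicate 3 was the highest of the KO libraries, yet all 3 were low beside WT. The log2 fold change was -2.94 (SE 0.24, adjusted p = 3.79e-11 by edgeR), and the few KO counts make it the least precise of the 3 large falls. Ina passed the filter on low counts in all WT libraries and in only 2 KO libraries. Exons of Nt5c2 on the other strand cover 14.1% of its exon length.

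Nefm, the medium neurofilament chain, had 9.79, 9.48 and 10.2 CPM in KO, against 18.1, 19.3 and 18.5 CPM in WT. The groups were apart and each was tight. Its log2 fold change was -0.92 (SE 0.13, adjusted p = 1.02e-06 by edgeR). The light chain Nefl, which other chains need to form filaments, had 20.5, 18.7 and 16.3 CPM in KO, against 24.6, 21.6 and 25.6 CPM in WT. The highest KO library was close to the lowest WT library, and the fall was small (log2 fold change -0.37, SE 0.12, adjusted p = 0.00761 by edgeR). Nefl and Nefm are neighbours on opposite strands of chromosome 14 (68083863 to 68089095, plus strand, and 68082590 to 68124846, minus strand). Annotated exons of Nefm cover 32.8% of the Nefl exon length, and those of Nefl cover 19.2% of Nefm. The counting's strand setting is not known here, so reads from the shared stretch cannot be assigned with certainty to either gene.

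Gfap, the astrocyte filament gene, was close to the limit of detection. It had 8, 12 and 5 counts in KO and 13, 18 and 12 counts in WT, and the groups overlapped. The log2 fold change of -0.67 (SE 0.44) did not pass (adjusted p = 0.175 by edgeR). It was -1.03 without KO replicate 2 and -0.38 without KO replicate 3, and at this depth the data do not show whether Gfap differed. It passed the filter through its WT libraries, with only 1 KO library over the limit.

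The lamins fell as well, and summed to 352.3 ± 3.45 CPM in KO and 559.2 ± 13.9 CPM in WT (SD, n = 3 each). Lmnb1, encoding lamin B1, had 238.7, 243.0 and 251.6 CPM in KO, against 430.7, 434.0 and 424.0 CPM in WT. All KO libraries were well below all WT libraries (log2 fold change -0.81, SE 0.039, adjusted p = 8.99e-16 by edgeR). Lmnb2, encoding lamin B2, had 46.2, 49.5 and 46.3 CPM in KO, against 58.9, 66.0 and 51.8 CPM in WT. The WT libraries were the more spread, and the lowest of them, replicate 3, was near the highest KO library (log2 fold change -0.32, SE 0.081, adjusted p = 0.00112 by edgeR). Lmna, which gives lamins A and C by alternative splicing, had 66.6, 56.8 and 58.2 CPM in KO, against 68.4, 73.6 and 70.3 CPM in WT. KO replicate 1 came close to WT replicate 1, though the groups did not overlap (log2 fold change -0.23, SE 0.067, adjusted p = 0.00434 by edgeR). Counts per gene do not separate lamin A from lamin C. Exons of the lamin genes are not overlapped by genes on the other strand.

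All 3 KO libraries lay below all 3 WT libraries for 9 of the 10 genes, and the same was true of 35.4% of all tested genes. In either direction, the groups were apart for 70.9% of all tested genes.

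**Figure D2:**
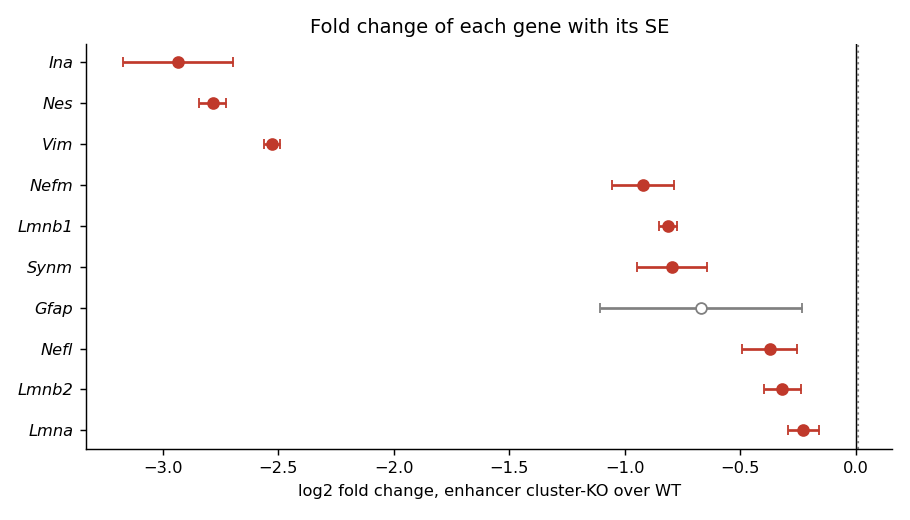
Log2 fold change of each gene, enhancer cluster-KO over WT, with its SE (bars), from the most to the least negative; filled points passed the test and the open point (Gfap) did not. The dotted line at 0.0091 is the median of all tested genes; Ina, Nes and Vim lie between -2.94 and -2.53 and the other 7 genes between -0.92 and -0.23.

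Sequence before the transcription start was read for the 3 genes with large falls, to show what their promoters hold. RefSeq (GRCm38.p6) windows were matched for 7 of the 10 genes. Stretches annotated as transcribed are left out, except for 30 bases around the TATA box of Vim, which lie within the annotated Vim gene. Whether these bases fall in an exon was not checked. Capitals mark the GC box (GGGCGG, here read on the other strand as CCGCCC) or the TATA box (TATAAA).
Nes, chr3:87970843-87971077, plus strand: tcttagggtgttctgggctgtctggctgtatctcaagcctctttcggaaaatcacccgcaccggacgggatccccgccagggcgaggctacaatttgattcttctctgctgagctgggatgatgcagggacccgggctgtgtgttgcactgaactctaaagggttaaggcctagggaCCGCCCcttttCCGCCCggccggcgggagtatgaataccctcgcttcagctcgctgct
Vim, chr2:13574267-13574296, plus strand: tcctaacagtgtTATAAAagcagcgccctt
Ina, chr19:47014431-47014680, plus strand: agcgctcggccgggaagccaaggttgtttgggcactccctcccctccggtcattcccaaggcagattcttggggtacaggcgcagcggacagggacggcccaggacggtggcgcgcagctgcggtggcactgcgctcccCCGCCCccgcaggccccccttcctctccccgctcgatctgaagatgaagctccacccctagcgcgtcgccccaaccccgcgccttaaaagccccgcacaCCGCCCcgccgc

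The 250 bases before each RefSeq start were searched on both strands for 5 short motifs. Nes held the GC box at 68 to 73 and at 57 to 62 bases before the start, and Ina held it at 106 to 111 and at 7 to 12 bases. Vim held no GC box but a TATA box at 27 to 32 bases and the CCAAT box at 192 to 196 bases and, on the other strand, at 90 to 94 bases. Of 32851 RefSeq windows of this length, 32.7% held a GC box, 33.8% a CCAAT box and 12.4% a TATA box. The AP-1 letters TGACTCA, present in 4.46% of windows, and the SOX letters AACAAAG, present in 5.03%, were in none of the 3. No motif of the 5 was in all 3 windows.

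Per kilobase of exon, which allows genes to be compared, the order of the genes differed between the groups. In KO libraries Lmnb1 came first, at 82.5 ± 2.21 CPM per kilobase, and Vim second, at 36.4 ± 1.08. In WT libraries Vim came first, at 209.6 ± 2.50 CPM per kilobase, and Lmnb1 second, at 145.0 ± 1.73 (SD, n = 3 each). Nes was sixth in KO, at 5.24 ± 0.544 CPM per kilobase, where it overlapped with Nefl at 5.47 ± 0.625. In WT it was the third, at 36.1 ± 1.07 CPM per kilobase, and separate from its neighbours. Ina was ninth in KO, at 0.477 ± 0.183 CPM per kilobase, and overlapped with Gfap, whereas in WT it was seventh, at 3.71 ± 0.249. Lmnb2 and Lmna overlapped with each other in both groups, at 11.0 ± 0.442 and 10.4 ± 0.909 CPM per kilobase in KO and 13.7 ± 1.66 and 12.1 ± 0.454 in WT. The lengths used include stretches covered by exons on the other strand (32.8% for Nefl, 19.2% for Nefm, 14.1% for Ina and 6.43% for Synm). With the counting's strand setting not known, the places of these genes, and that of Nes beside Nefl, are uncertain.

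Summed over the 10 genes, the level per kilobase was 154.6 ± 1.83 in KO and 433.1 ± 1.72 in WT. The sum of the 7 cytoplasmic genes was 50.7 ± 0.377 CPM per kilobase in KO and 262.2 ± 3.37 in WT, and that of the 3 lamins was 103.9 ± 1.55 in KO and 170.9 ± 3.65 in WT. Vim made up 23.5% ± 0.449 of the summed level in KO and 48.4% ± 0.658 in WT. The share of Nes was 3.39% ± 0.366 in KO and 8.33% ± 0.216 in WT. Lmnb1 made up 53.4% ± 0.849 in KO and 33.5% ± 0.344 in WT. With the longest annotated transcript as the length, Vim held 31.1% in KO and 58.4% in WT and Lmnb1 45.4% in KO and 26.0% in WT, so that the order of Vim and Lmnb1 also differed between the groups. By that length Nefm (0.870%) stood above Ina (0.638%) in WT, so the place of Ina in WT depended on the length used. In KO the shares by that length were 2.90% for Nes and 2.89% for Nefl.

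**Figure D3:**
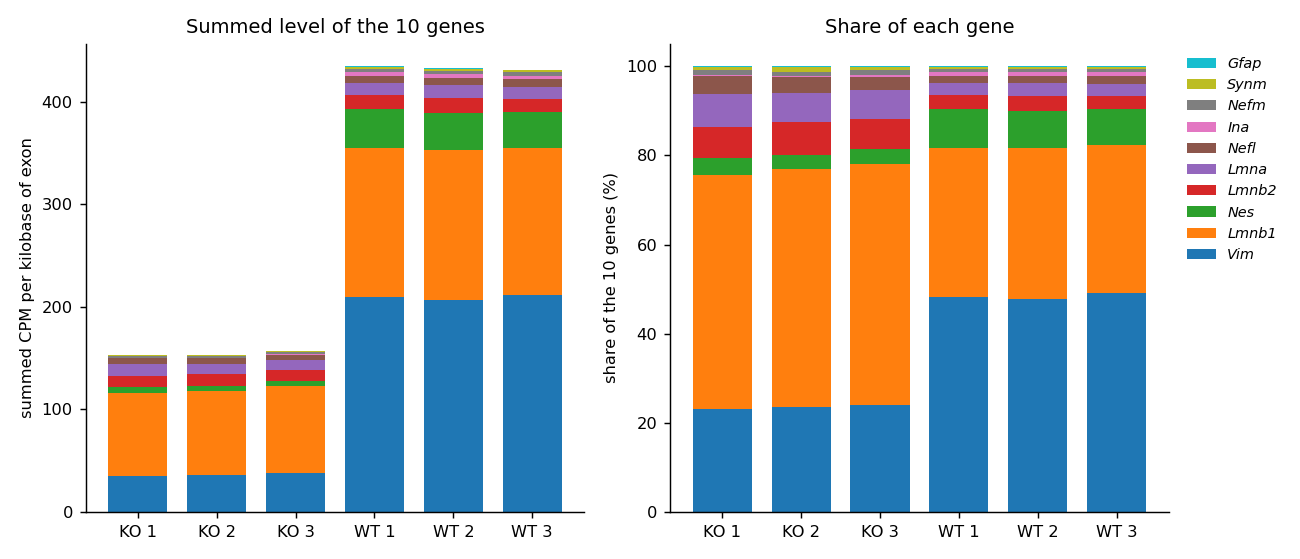
Stacked bars of the 10 genes in each library, as CPM per kilobase of exon (left) and as percent of their sum (right), with the 3 enhancer cluster-KO libraries before the 3 WT libraries. The summed level is 154.6 in KO and 433.1 in WT on average, and Lmnb1 in KO takes the place that Vim holds in WT.

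Ratios between genes of the same library do not depend on how libraries are scaled. For 1 vimentin count there were 0.224, 0.179 and 0.184 nestin counts in KO, against 0.240, 0.232 and 0.226 in WT. The log2 ratio of Nes to Vim was 0.26 lower in KO (log2 difference -0.26), and KO replicate 1 was close to the WT values. For 1 vimentin count there were 0.0533, 0.0680 and 0.0457 synemin counts in KO, against 0.0159, 0.0165 and 0.0176 in WT, a log2 difference of 1.72 with the groups far apart. Ina to Vim overlapped between the groups, with a log2 difference of -0.44, which was -0.26 without KO replicate 2 and -0.70 without KO replicate 3. Lmna to Lmnb1 was 0.279, 0.234 and 0.232 in KO and 0.159, 0.170 and 0.166 in WT, a log2 difference of 0.59, and Lmnb2 to Lmnb1 gave a log2 difference of 0.51. Lmna to Lmnb2 overlapped, with a log2 difference of 0.08, which was between -0.0068 and 0.17 with 1 library left out. Vim to Lmnb1 was 0.703, 0.706 and 0.708 in KO and 2.31, 2.26 and 2.37 in WT, a log2 difference of -1.71.

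These 7 ratios were compared by an exact two-sided permutation test over the 6 libraries, which with 3 against 3 cannot give a p under 0.1. The 5 ratios whose groups did not overlap reached that p of 0.1, or 0.14 adjusted by Benjamini-Hochberg over the 7, and Ina to Vim and Lmna to Lmnb2 gave exact p values of 0.3 and 0.6. None therefore passed 0.05.

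**Figure D4:**
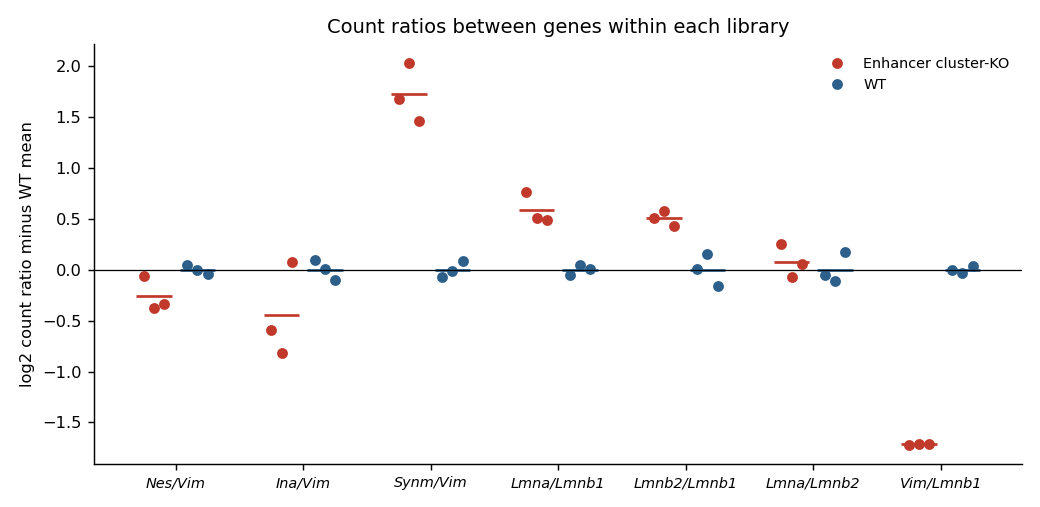
Log2 ratio of counts between pairs of genes in each library, minus the WT mean of that ratio; red points are the 3 enhancer cluster-KO libraries, blue points the 3 WT libraries and lines the means. Synm to Vim lies 1.72 higher in KO and Vim to Lmnb1 1.71 lower on the log2 scale, while Ina to Vim and Lmna to Lmnb2 overlap.

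Other non-keratin filament genes moved mostly the same way. Of 7 tested among 10 listed, 5 fell, 1 rose and Iffo1 did not pass (median log2 fold change -0.64), beside 34.0% that fell and 34.5% that rose among all tested genes. Nefh, the heavy neurofilament chain, was at 2.92 ± 1.25 CPM in KO and 12.03 ± 0.955 CPM in WT (log2 fold change -2.04, SE 0.23). Prph, encoding peripherin of peripheral neurons, was at 63.5 ± 6.52 CPM in KO and 117.9 ± 4.39 CPM in WT (-0.89, SE 0.061). Iffo2, an intermediate filament family orphan, was at -1.45 (SE 0.096), and Lmntd2, a gene with a lamin tail domain, rose (0.92, SE 0.19). Keratins of simple epithelia, the other large class of cytoplasmic filaments in early embryonic cells, fell in 5 of 5 tested (median -1.29). The most abundant of them, Krt8, was at 497.5 ± 10.9 CPM in KO and 1216 ± 10.2 CPM in WT.

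Of 19 inner nuclear membrane, LINC complex and lamin-binding genes, whose proteins sit beside the lamins, 8 rose, 7 fell and 4 did not pass (median log2 fold change 0.13). These shares are close to the 34.5% that rose and 34.0% that fell among all tested genes. The LINC complex ties the lamina to the cytoskeleton, and its gene Sun2 was at 110.5 ± 7.54 CPM in KO and 42.4 ± 1.98 CPM in WT (1.38, SE 0.064). Syne2, encoding nesprin 2, rose as well (1.25, SE 0.086). In contrast Tor1aip1, encoding the lamina-binding protein LAP1, fell (-1.35, SE 0.11), as did Tmpo, encoding LAP2 (-0.42, SE 0.045). Lbr, the lamin B receptor, was at 195.4 ± 4.92 CPM in KO and 163.7 ± 7.92 CPM in WT (0.25, SE 0.046), so that it rose while Lmnb1 fell. Of 6 genes that farnesylate or trim lamin precursors, 1 fell and 5 did not pass (median -0.01). The 1 was Zmpste24, the protease that matures prelamin A, at 57.0 ± 1.62 CPM in KO and 86.3 ± 3.55 CPM in WT (-0.60, SE 0.060). Lbr was chosen after its value was seen.

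Of 15 tested genes for proteins that link or protect cytoplasmic filaments, 10 fell, 4 rose and 1 did not pass (median log2 fold change -0.38). The shares over all tested genes were 34.0% lower and 34.5% higher. Plec, encoding plectin, which ties vimentin filaments to adhesions and to the nucleus, was at 111.5 ± 4.39 CPM in KO and 354.1 ± 2.28 CPM in WT (-1.67, SE 0.044). The small heat shock genes Hspb1 (-2.10, SE 0.046) and Cryab (-1.47, SE 0.093), whose proteins act as chaperones of filaments, fell. Fam83h, known for organising keratin filaments, was at -2.85 (SE 0.11). The 4 that rose were Evpl, Ppl, Trim32 and Mtm1, with log2 fold changes of 0.35 to 0.55, and 2 of them passed without KO replicate 1 or without WT replicate 2. These 4 were named because they rose, after their values were seen.

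Kinases and phosphatases that act on filament proteins fell in 8, rose in 4 and did not pass in 6 of 18 tested (median log2 fold change -0.10). Over all tested genes 34.0% fell, 34.5% rose and 68.6% changed in either direction. Mapk3 (0.99, SE 0.049) and Pak1 (0.69, SE 0.077) rose. Ppp2ca (-0.53, SE 0.041) and Rock2 (-0.43, SE 0.043) fell, and exons of the other strand cover 41.3% of Ppp2ca. Cdk1, the kinase that takes vimentin, nestin and lamin filaments apart at mitosis, was at 157.9 ± 5.51 CPM in KO and 173.9 ± 8.54 CPM in WT (-0.14, SE 0.047). Cdk1 was chosen after its value was seen.

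Factors known to act at the neural enhancer of nestin, or to be expressed with it, fell in 6, rose in 2 and did not pass in 3 of 11 tested (median log2 fold change -0.49). Among all tested genes 34.0% fell and 34.5% rose. Sox2, a SOX factor of stem cells and neural progenitors, was at 26.7 ± 1.71 CPM in KO and 74.9 ± 2.63 CPM in WT (-1.49, SE 0.076). Sox4 (-0.49, SE 0.042) and Hes1, a Notch target (-0.67, SE 0.084), fell, whereas Sox11 rose (0.69, SE 0.072). Exons of the other strand cover 54.6% of Sox4. The POU genes Pou3f2 and Pou3f4 and the Notch target Hes5 had too few counts to be tested.

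**Figure D5:**
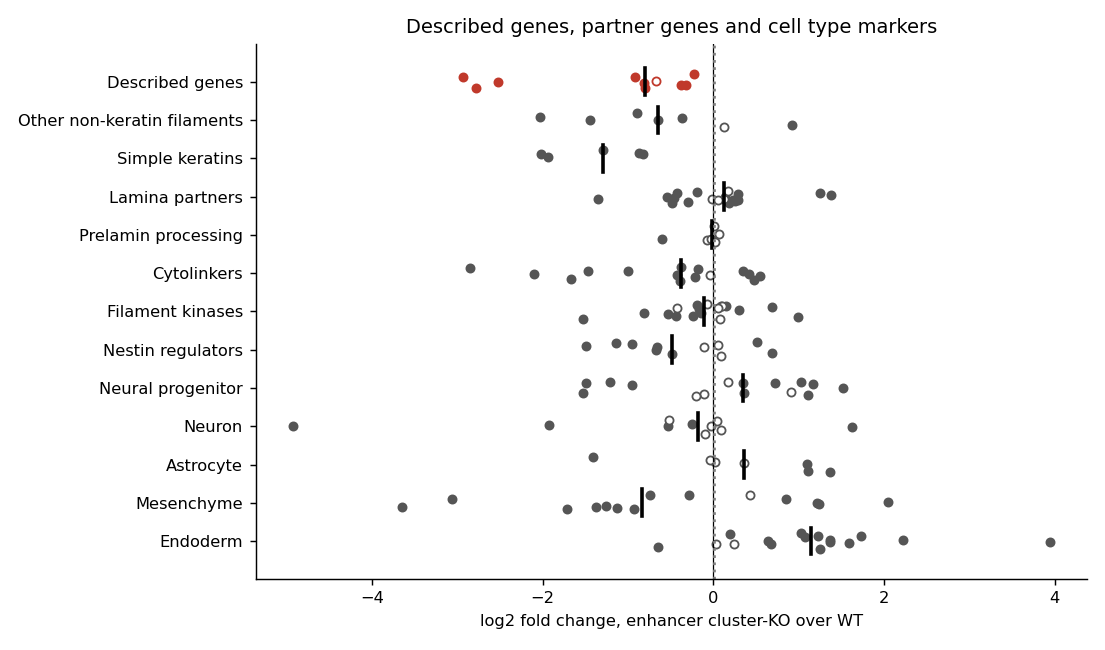
Log2 fold change, enhancer cluster-KO over WT, of each tested gene in the 10 described genes (red, top row) and in 12 lists of filament partners, regulators and cell type markers; filled points passed the test, open points did not, black bars are medians and the dotted line is the median of all tested genes at 0.0091. Medians run from -1.29 for the simple keratins to 1.15 for the endoderm markers.

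Markers of other cells that carry these filaments also differed between the groups. Counts in this and the following lists stand beside 34.0% that fell and 34.5% that rose among all tested genes. In the mesenchyme list, 9 genes fell, 4 rose and 1 did not pass of 14 tested (median log2 fold change -0.84). Over 9 defining markers, of which 7 fell and 2 rose, the summed level was 486.2 to 496.2 CPM in KO and 1611 to 1646 CPM in WT. Most of the WT sum was Acta2, smooth muscle actin, at 81.0 ± 5.45 CPM in KO and 1016 ± 11.7 CPM in WT (-3.65, SE 0.044). Col1a1 and Fn1 fell as well (-1.71, SE 0.045, and -0.93, SE 0.024). Of the 2 defining markers that rose, Pdgfra was at 175.5 ± 5.37 CPM in KO and 75.4 ± 6.34 CPM in WT. Tagln, at -3.07 (SE 0.038), has 67.9% of its exon length covered by the other strand. The 4 that rose were Col1a2, Pdgfra, Snai1 and Snai2, with log2 fold changes of 0.85 to 2.05, and were named after their values were seen. The part of such cells in the fall of Vim was not tested.

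Of 18 listed neuron genes only 10 could be tested, and of these 4 fell, 1 rose and 5 did not pass (median log2 fold change -0.17). Tubb3, neuronal beta-tubulin, was at 2.04 ± 0.661 CPM in KO and 62.7 ± 3.87 CPM in WT (-4.92, SE 0.15). Gap43 fell (-1.92, SE 0.13), Stmn2 fell by less (-0.25, SE 0.066) and Map2 rose (1.63, SE 0.16). Of the 8 defining markers of neurons, Dcx and Rbfox3 had 0 to 4 counts and Elavl4 1 to 5 counts per library, while Stmn2 had 403 to 602, Map2 42 to 144 and Mapt 67 to 100. Snap25, also listed, had 0 counts in all 6 libraries. The summed level of the 8 defining markers was 83.3 to 87.6 CPM in KO and 142.6 to 154.6 CPM in WT. Most of this difference came from Tubb3 alone. Of the other defining markers tested, Stmn2 fell, Map2 rose, and Mapt (-0.10, SE 0.17) and Elavl3 (-0.52, SE 0.38) did not pass. The part of these markers in the falls of Ina and Nefm was not tested.

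Among 15 tested neural progenitor genes, 7 rose, 4 fell and 4 did not pass (median log2 fold change 0.34). Sox2 and Slc1a3 each stand in more than 1 of the lists. Cdh2, encoding N-cadherin, was at 49.6 ± 1.68 CPM in KO and 142.9 ± 10.0 CPM in WT (-1.52, SE 0.057), while Slc1a3 (1.11, SE 0.091) and Msi2 (0.37, SE 0.046) rose. The summed level of the 8 defining markers was 146.2 to 159.4 CPM in KO and 264.7 to 286.0 CPM in WT. Most of the WT sum came from Cdh2 and Sox2. By gene the markers were split: Pax6, Prom1 and Msi1 rose (log2 fold changes 1.16, 0.72 and 0.34). Cdh2, Sox2 and Sox3 fell (-1.52, -1.49 and -0.95), Sox1 did not pass and Fabp7 had 0 counts. In the astrocyte list 3 genes rose, 1 fell and 3 did not pass of 7 tested (median 0.36). Glul (1.37, SE 0.045) and Aldh1l1 (1.10, SE 0.15) rose and Nfib fell (-1.40, SE 0.17), while the defining markers Aqp4 and S100b had 0 to 2 counts per library. Summed over 6 defining markers the astrocyte level was 310.6 to 323.4 CPM in KO and 267.6 to 293.4 CPM in WT. Most of this sum was Gja1, at 247.8 ± 9.36 CPM in KO and 244.7 ± 13.1 CPM in WT, which did not pass (0.02, SE 0.046). Aldh1l1 and Slc1a3 rose, and Aqp4, S100b and Slc1a2 had too few counts to be tested.

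Endoderm markers rose in 13, fell in 1 and did not pass in 2 of 16 tested (median log2 fold change 1.15). The summed level of 8 defining markers was 7146 to 7256 CPM in KO and 2325 to 2358 CPM in WT. Most of it came from Lama1, Lamb1 and Cubn, at 2811 ± 35.3, 2900.0 ± 42.3 and 1038 ± 13.5 CPM in KO and 932.9 ± 17.3, 875.1 ± 18.7 and 222.4 ± 5.53 CPM in WT. Of the other 5, Gata4, Gata6 and Sox7 rose (log2 fold changes 0.65, 1.03 and 0.20), Sox17 fell (-0.65) and Foxa2 did not pass (0.03). Of 12 pluripotency genes tested, 3 rose, 8 fell and 1 did not pass (median -1.22), and the 5 defining markers summed to 377.4 to 397.6 CPM in KO and 623.2 to 649.5 CPM in WT. Of 12 tested genes of the mitochondrial genome, 7 rose, 1 fell and 4 did not pass (median 0.29). Of 12 tested immediate early genes, which respond quickly to handling, 9 were lower, 3 did not pass and all 12 had negative fold changes (median -1.15). The part of these differences in the filament genes was not tested.

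Profiles most like those of Nes and Vim were sought among 11113 genes with a mean of at least 5 CPM, by the root mean square distance between log2 CPM values centred on each gene's mean over the 6 libraries. Left out of these candidates were the filament genes described here and genes without a symbol or with a predicted-gene or clone name. The nearest to Nes were Pdgfc, a growth factor gene, Fosl2, an AP-1 factor gene, and Cavin1, a caveolar coat gene, at distances of 0.0523, 0.0884 and 0.0996. Nearest to Vim were Pmp22, a membrane protein of myelin, Tmsb4x, the actin-binding thymosin beta-4, and Jph2, a junctophilin, at distances of 0.0611, 0.0617 and 0.0746. With 6 libraries in 2 groups, genes of similar fold change come out as near. Tmsb4x was at 105.3 ± 3.22 CPM in KO and 640.9 ± 15.0 CPM in WT (-2.61, SE 0.042), and Pdgfc was at 5.48 ± 0.595 CPM in KO and 39.3 ± 1.06 CPM in WT (-2.84, SE 0.13).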

How the data were processed

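The authors deposited 1 table of read counts per library, holding whole-number counts per Ensembl gene, not normalised. HISAT2 2.1.0, HTSeq 0.9.1, DESeq2 1.18.1 and mm10 are named, per the submitters' processing notes. The annotation release and strandedness used in counting: not given in the sources used here. Left out of library sizes and tests were the 5 HTSeq tallies that name no gene, among them no_feature (42.3 to 43.5% of each library). Symbols, positions and union exon lengths came from GENCODE M21 (GRCm38), which matched 52489 of 52636 identifiers.

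The test of KO against WT was made in edgeR 4.0.16 (R 4.3.3), with no covariate, after filterByExpr (minimum count 10, 15816 genes kept) and TMM scaling. P-values of the quasi-likelihood test had Benjamini-Hochberg adjustment across all tested genes, and the threshold was 0.05. The SE is the log2 fold change divided by the root of its F statistic. CPM values use TMM library sizes and are mean ± SD over 3 libraries. Ratios used counts plus 0.5 and exact permutation tests (scipy 1.17.1). The design text calls the libraries biological replicates without saying whether they are separate cultures or clones, so p-values measure the spread between these libraries, which may be partly technical. The genes and the 15 gene lists were chosen with earlier results of these data known, and no set test was run. All 10 filament genes are named, with up to 4 genes of the smallest adjusted p from each list and 3 nearest profiles each for Nes and Vim; of the mitochondrial and immediate early lists only counts and medians are given, and of the endoderm and pluripotency lists the defining markers. Alternatives were DESeq2 1.42.0, limma-voom (limma 3.58.1), RLE, upper-quartile or no scaling, a looser filter (1 count in all, or CPM 1 or more in 3 libraries), a block for the replicate number, and leaving out each library. Leaving out ribosomal RNA locus and mitochondrial genes was chosen after seeing the data.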

Additional observations from a re-analysis of the deposited data

How the results depend on the processing

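The calls of all 10 filament genes, 9 lower and Gfap not passing, held in each of the 15 alternative fits, with log2 fold changes of -2.87 to -2.72 for Nes, -2.55 to -2.49 for Vim and -3.30 to -2.75 for Ina. Taking for each gene the fit with its highest adjusted p, the closest to the threshold were Nefl without KO replicate 3 (-0.29, adjusted p = 0.0484 by edgeR), Lmna without KO replicate 2 (-0.18, adjusted p = 0.0348 by edgeR) and Lmnb2 without WT replicate 2 (-0.23, adjusted p = 0.0231 by edgeR). With the replicate number as a block, 9 members fell and Nes was at -2.79. Deviations of same-numbered libraries from their group means correlated at only -0.0085 to 0.018. Such values show no shared deviation, but they cannot tell whether the libraries were prepared in pairs, which the labels do not say. Leaving out 1 library at a time gave 2 to 4 higher cytolinkers and a log2 difference of -0.0068 to 0.17 for Lmna to Lmnb2, whose sign turned without KO replicate 1; the cause was not tested. Median log2 fold changes of all tested genes ran from 0.0029 to 0.046 across the fits. Depth limits Gfap (5 to 18 counts per library) and the KO libraries of Ina (9 to 19 counts).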
